A study of Homo sapiens with 4 samples.

Results

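The 9 genes described here are IRF1, IRF2, IRF3, IRF7, IRF9, STAT2, STAT3, IFIT1 and ISG15, and all 9 were among the 16376 genes of the expression table. They were selected on the FPKM of this same experiment, in which IRF1 was lower with fluoxetine, to see whether other interferon factors or interferon-stimulated genes differed as well. The contrast between fluoxetine and PBS is therefore given for them as a description, with values and intervals and without a p-value for any of them.

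RNA was sequenced from LASCPC-01, a human neuroendocrine prostate cancer (NEPC) cell line made with NMYC and activated AKT1, labelled as wild type. Cells received PBS (n = 2 libraries) or fluoxetine, a serotonin reuptake inhibitor used as an antidepressant (n = 2 libraries). The treatment label of the treated samples reads fluoxetine, while their titles carry the letters PP in its place, which no source used here explains. The sample titles give day 3 and no dose, whereas the study text gives 5 µM for 48 h. Both groups carry the NMYC and AKT1 transgenes of the line, which is 1 line, and no source says that the libraries of a group came from separate cultures, so the spread between them may be technical.

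Interferons bind receptors on the cell surface whose JAK kinases phosphorylate STAT proteins. STAT2 and IRF9 belong to the complex ISGF3, which binds the interferon-stimulated response element (ISRE) in promoters of genes such as IFIT1 and ISG15, while STAT dimers bind the gamma-activated site (GAS), through which IRF1 is induced. IRF3 and IRF7 act before this step, since sensors of foreign nucleic acid activate them to switch on the interferon genes, and cancer cells differ widely in how much of this circuit they express.

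The promoters of the members (RefSeq, GRCh38.p14, 250 bases before to 50 bases after the start) were searched on both strands for short cores. These were TTCNNNGAA, the core of the GAS, and GAAANNGAA, the core of the ISRE. A promoter was listed for 6 members, IRF1, IRF9, STAT2, STAT3, IFIT1 and ISG15. The 4 with a match are printed here 5′ to 3′ on the gene's strand, with the matches in capitals. The IRF1 stretch lies at chr5:132490869-132490917 on the minus strand, and on the plus strand lie those of IRF9 at chr14:24161182-24161230, IFIT1 at chr10:89392488-89392549 and ISG15 at chr1:1013364-1013424.
IRF1: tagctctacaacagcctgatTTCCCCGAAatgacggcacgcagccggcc
IRF9: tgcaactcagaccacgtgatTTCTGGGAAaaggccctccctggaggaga
IFIT1: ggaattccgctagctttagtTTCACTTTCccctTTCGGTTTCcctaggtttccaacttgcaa
ISG15: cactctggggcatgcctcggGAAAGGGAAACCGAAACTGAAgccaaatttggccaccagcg

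IRF1 and IRF9 each held 1 match to TTCNNNGAA, beginning at -124 and -63 from the start, and no match to GAAANNGAA. IFIT1 held 2 matches to GAAANNGAA, read on the minus strand, and ISG15 held 3 in a row, of which neighbours overlap. STAT2 and STAT3 held neither. Among all 35116 promoter windows of the same length, 7.66% held TTCNNNGAA and 8.11% held GAAANNGAA. A match is a description of the letters and not evidence of binding in these cells. Of the 2 genes with a GAS core, IRF1 was lower with fluoxetine and IRF9 overlapped between groups, and of the 2 with an ISRE core, ISG15 was higher and IFIT1 overlapped.

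The labelled cell type was checked against its markers. Of 11 neuroendocrine and epithelial markers, 8 had a mean of at least 1 FPKM, the highest of them KRT8, KRT18 and MYCN, whereas CHGA, SYP and NKX2-1 were below 1 FPKM. The summed level of these markers was 1622 to 1661 FPKM with PBS and 1662 to 1695 FPKM with fluoxetine. Of 12 leukocyte markers, which would bring interferon genes of their own, 7 were listed and 1, CD68, reached 1 FPKM, and the sum was 2.92 to 4.19 FPKM with PBS and 2.78 to 3.79 FPKM with fluoxetine. The pan-leukocyte gene PTPRC had a mean of 0.0137 FPKM. Of 7 fibroblast and endothelial markers, COL1A1 alone reached 1 FPKM, and of 5 markers of plasmacytoid dendritic cells, 2 were listed, TCF4 at 25.5 FPKM and GZMB at 0.0561 FPKM. The part of other cells in the results was not tested, and in bulk RNA fewer cells of a type and less RNA per cell cannot be told apart. The depth behind the FPKM, recovered from the values, was between 32873603 and 34831389 reads per library.

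The members spanned a wide range of levels. FPKM is a read number per length of gene and per depth of library, so levels can be compared between genes. The mean over the 4 libraries was 94.4 FPKM for ISG15, 48.7 for IRF3, 26.1 for STAT3, 7.85 for STAT2, 5.26 for IRF7, 4.63 for IRF9, 3.94 for IRF1, 3.05 for IRF2 and 0.243 for IFIT1. From IRF7 down to IRF2 the ranges of neighbours overlapped between libraries, so the order of neighbours among these 4 genes is not resolved by their ranges. IRF7 and IRF9, with lowest values of 4.53 and 3.78 FPKM, were above the highest value of IRF2, 3.53 FPKM. The other neighbours were apart in every library. The levels also rest on the gene lengths the authors used, which the recovered reads put at 8770 bases for IRF2 and 3570 bases for IRF1, against 3116 and 7799 bases of merged exons in GENCODE 29.

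**Figure D1:**
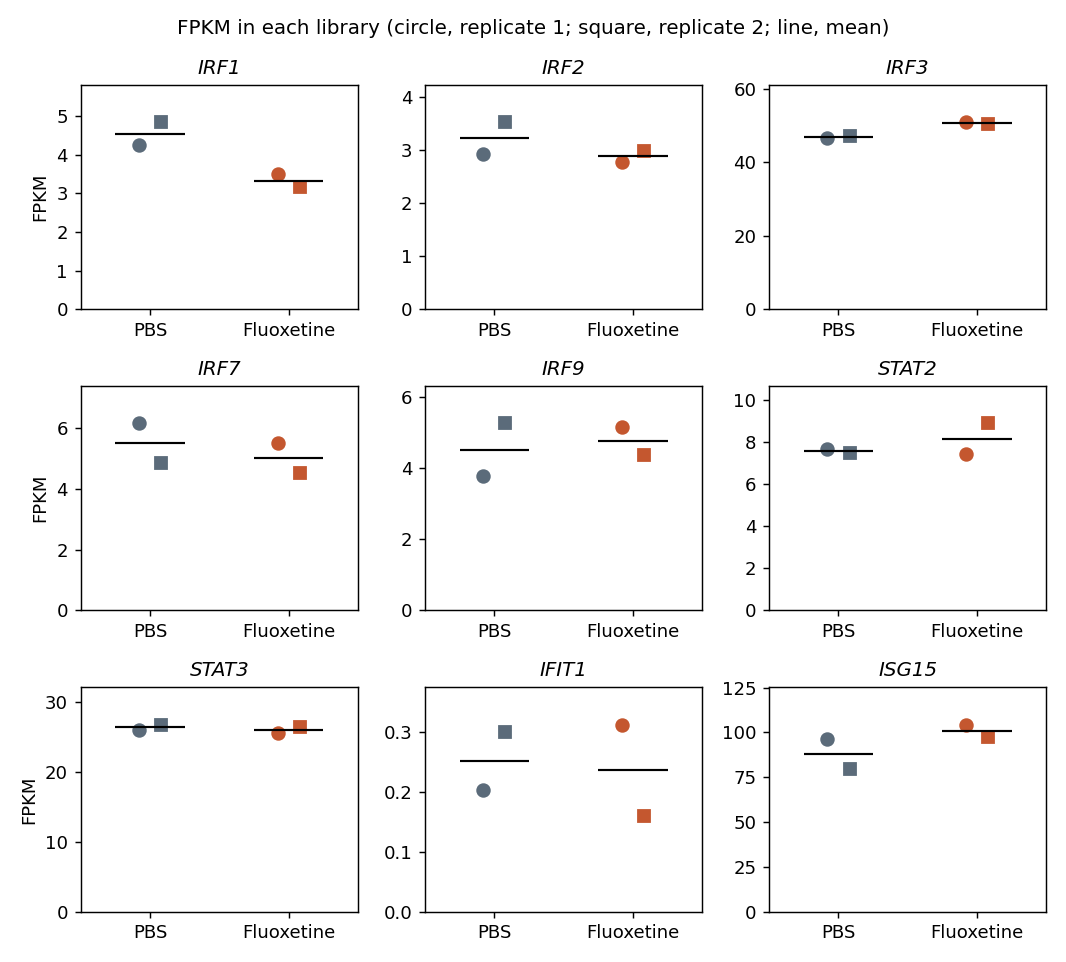
FPKM of each of the 9 genes in the 2 PBS and the 2 fluoxetine libraries, with each vertical axis starting at 0, circles for replicate 1, squares for replicate 2 and a line at the group mean. IRF1 is lower in both fluoxetine libraries than in both PBS libraries, IRF3 and ISG15 are higher, and the other 6 genes overlap.

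IRF1 is a transcription factor that activates interferon-gamma genes and restrains growth. In GENCODE 29 on GRCh38 it lies on chromosome 5 from 132481609 to 132490798 on the minus strand. With PBS it had 4.25 and 4.84 FPKM, and with fluoxetine 3.49 and 3.17 FPKM, from 499, 600, 434 and 394 reads. The groups did not overlap, with 0.759 FPKM between the nearest of them. The PBS mean was 4.54 ± 0.413 FPKM (SD, n = 2) and the fluoxetine mean 3.33 ± 0.229 FPKM (SD, n = 2), so the fluoxetine mean was 0.733 of the PBS mean. On the log2(FPKM + 0.1) scale the difference, fluoxetine minus PBS, was -0.44 with a standard error of 0.12 and a 95% interval of -0.70 to -0.17. Counting error alone would give this difference a standard error of 0.07, and the replicates differed by 0.19 with PBS and by 0.14 with fluoxetine on the log2 scale. Of the 10580 genes with a mean of at least 1 FPKM, 104 had a difference as low as that of IRF1 or lower, which is 0.983%. Since IRF1 drew attention by being lower in these same libraries, this place is a description and not a test. Of the 7799 exon bases of IRF1, 1716 are shared with C5orf56, a noncoding gene on the opposite strand that is not in the table. A further partner on that strand, the protein-coding AC116366.3, shares 469 and is not in the table either. Exon shares here and below use merged GENCODE 29 exons and not the lengths behind the FPKM, 3570 bases for IRF1. The library kit named in the labels keeps strand, but the study text names another kit. The strand setting of the counting is not given in the sources used here, so reads of these genes may not be separable.

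IRF2, which binds the same element as IRF1 and counteracts it, lies on chromosome 4 from 184387713 to 184474580. It had 2.92 and 3.53 FPKM with PBS and 2.78 and 2.99 FPKM with fluoxetine. The groups overlapped, because fluoxetine replicate 2 was above PBS replicate 1. Its log2 difference was -0.15 with a standard error of 0.14 and a 95% interval of -0.45 to 0.14, which spans fluoxetine levels of 0.735 to 1.10 of the PBS level.

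IRF3 and IRF7 carry the signal from nucleic acid sensors to the interferon genes. IRF3, which most cells hold ready in an inactive form, lies on chromosome 19 from 49659569 to 49665875 and had 46.5 and 47.1 FPKM with PBS and 50.9 and 50.3 FPKM with fluoxetine. Both fluoxetine libraries were above both PBS libraries, and the replicates of each group were close together. The fluoxetine mean was 1.08 times the PBS mean, and the log2 difference was 0.11 with a standard error of 0.07 and an interval of -0.04 to 0.26 that includes 0. Exons of IRF3 share 19.3% of their bases with BCL2L12 on the opposite strand, an anti-apoptotic gene whose log2 difference was -0.07 with a standard error of 0.08. With the trend of FPKM on gene length removed, the log2 difference of IRF3 was 0.07, and it was also 0.07 after rescaling to TPM.

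IRF7, which is itself induced by interferon and amplifies the response, lies on chromosome 11 from 612553 to 615999. It had 6.15 and 4.85 FPKM with PBS and 5.50 and 4.53 FPKM with fluoxetine, with replicate 1 above replicate 2 in each group. The groups overlapped, and the log2 difference was -0.13 with a standard error of 0.14. Its sign depended on the libraries, since it was 0.04 without PBS replicate 1, 0.01 without fluoxetine replicate 2 and -0.30 without PBS replicate 2.

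IRF9 and STAT2 are the DNA-binding and transactivating parts of ISGF3. IRF9 lies on chromosome 14 from 24161053 to 24166565 and had 3.78 and 5.25 FPKM with PBS and 5.15 and 4.35 FPKM with fluoxetine. This span begins upstream of the RefSeq start used for the promoter, so the IRF9 stretch printed above lies inside it. The PBS libraries held the lowest and the highest value of the 4. The PBS replicates differed by 0.48 on the log2 scale, where counting error alone gives a standard error of 0.13 for such a difference. The log2 difference between groups was 0.09 with a standard error of 0.15, and leaving out 1 library moved it between -0.15 and 0.32. Of the exon bases of IRF9, 48.4% also belong to AL136295.5, a protein-coding gene on the same strand that is not in the table.

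STAT2 lies on chromosome 12 from 56341597 to 56360155 and had 7.64 and 7.48 FPKM with PBS and 7.43 and 8.87 FPKM with fluoxetine. Fluoxetine replicate 2 stood above the other 3 libraries, which were close together. The log2 difference was 0.10 with a standard error of 0.10, and -0.02 without fluoxetine replicate 2.

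STAT3, the factor of the IL6 family of cytokines and a growth-promoting factor in many carcinomas, lies on chromosome 17 from 42313324 to 42388568. It had 26.0 and 26.7 FPKM with PBS and 25.5 and 26.4 FPKM with fluoxetine, from at least 4317 reads in each library. The groups overlapped. The log2 difference was -0.02 with a standard error of 0.07 and an interval of -0.19 to 0.14, which spans fluoxetine levels of 0.879 to 1.10 of the PBS level.

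ISG15 encodes a ubiquitin-like protein that is conjugated to others during the interferon response. It lies on chromosome 1 from 1001138 to 1014540, a span that begins upstream of the RefSeq start used for the promoter, and had 96.2 and 79.4 FPKM with PBS and 104 and 97.5 FPKM with fluoxetine. Both fluoxetine libraries were above both PBS libraries, by 1.35 FPKM at the nearest, while the PBS libraries were much further apart than this. The PBS mean was 87.8 ± 11.8 FPKM (SD, n = 2) and the fluoxetine mean 101 ± 4.80 FPKM (SD, n = 2). The log2 difference was 0.21 with a standard error of 0.09 and an interval of 0.01 to 0.41. It was 0.07 without PBS replicate 2 and 0.34 without PBS replicate 1. ISG15 is short, with a length of 637 bases behind its FPKM. Across genes, which are not independent replicates, log2 length and a gene's deviation from its own average had a Pearson correlation of -0.28 in fluoxetine replicate 1, where short genes were relatively high, and of 0.19 in PBS replicate 2, where they were relatively low. With that trend removed, the log2 difference of ISG15 was 0.08 with a standard error of 0.06, and that of IRF1 was -0.42.

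IFIT1, a protein that binds foreign RNA and the textbook readout of ISGF3, lies on chromosome 10 from 89392546 to 89406486. It had 0.202 and 0.2996 FPKM with PBS and 0.312 and 0.159 FPKM with fluoxetine, from 30, 47, 49 and 25 reads. The fluoxetine libraries held both the highest and the lowest value. The log2 difference was -0.09 with a standard error of 0.36 and an interval of -0.88 to 0.70, which spans fluoxetine levels of 0.543 to 1.63 times that of PBS, and a difference within that range was not detectable here. The fluoxetine replicates differed by 0.97 on the log2 scale, where counting error alone gives a standard error of 0.35 for such a difference.

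**Figure D2:**
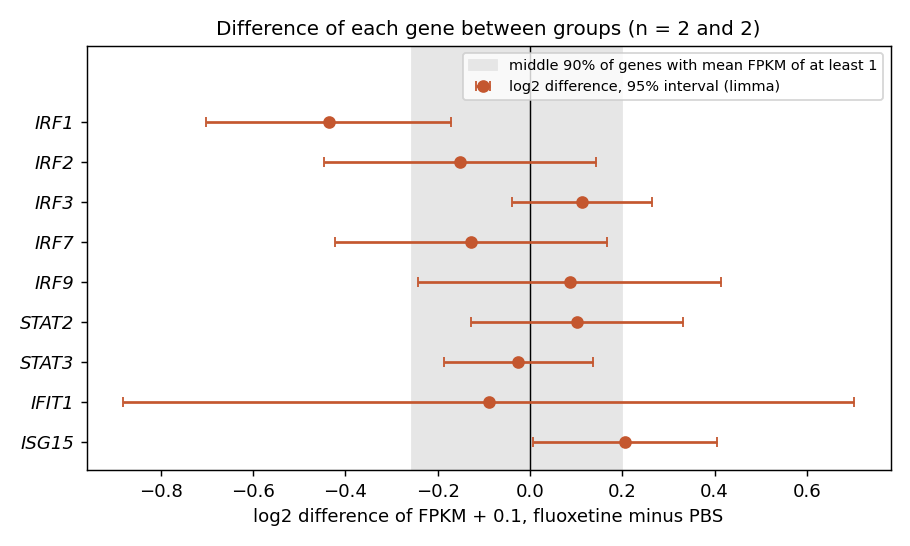
Log2 difference of FPKM + 0.1, fluoxetine minus PBS, for each of the 9 genes as a point with its 95% interval from limma (2 libraries against 2). The grey band holds the middle 90% of the genes with a mean of at least 1 FPKM, from -0.26 to 0.20. IRF1 lies to the left of the band, ISG15 just beyond its right edge and the other 7 inside it, with the widest interval for IFIT1.

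Of the 9 members, 0 had an adjusted p under 0.05 in limma, where 0.237% of the 12663 genes tested did. At an unadjusted p under 0.05 there were 2, against 1078 of the 12663 genes, and limma voom on the recovered reads also called 0. The groups did not overlap, with fluoxetine lower, for 1 member, against 24.8% of all genes tested, and with fluoxetine higher for 2 members, against 16.7%. The median log2 difference of the members was -0.02, as it was over all genes tested. Since the members were chosen with this contrast known, nothing is read from these counts.

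The rest of the circuit was covered by 8 lists of 189 genes named by function, of which 164 were in the table and 132 had the mean of 0.1 FPKM needed for the test. None of the 132 passed an adjusted p of 0.05 in limma, in either direction, or in voom. At an unadjusted p under 0.05 there were 9 lower and 3 higher, against 606 lower and 472 higher of the 12663 genes tested. The groups did not overlap, with fluoxetine lower, for 31.8% of them, and with fluoxetine higher for 12.1%, against the same 24.8% and 16.7% of all genes. The smallest adjusted p among them was 0.381, for PSMB10.

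Of 16 ligand genes, 3 were listed and LIF was the 1 that could be tested, at a mean of 0.456 FPKM. The other listed ligands, the interferons IFNA5 and IFNL3, had reads in 1 library each and a mean of 0.00728 and 0.0105 FPKM. The receptors and kinases were present, with 11 of 14 at 1 FPKM or more and JAK1, the kinase shared by all interferon receptors, highest at 23.3 FPKM. Of the 12 tested, 0 passed, and their median log2 difference was -0.11. IL6ST, the shared receptor of the IL6 family, had 3.46 and 2.89 FPKM with PBS and 2.55 and 2.82 FPKM with fluoxetine, a log2 difference of -0.23 with a standard error of 0.14 (adjusted p = 0.624 from limma), and of -0.11 without PBS replicate 1 and -0.36 without PBS replicate 2. At the other end, IFNGR2, a chain of the interferon gamma receptor, had a log2 difference of 0.05 with a standard error of 0.09.

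Among the sensors and adaptors, 0 of 16 passed, and the median log2 difference was -0.08. STING1, the adaptor of cytosolic DNA sensing, had the lowest difference of those with at least 1 FPKM. It had 2.13 and 2.45 FPKM with PBS and 1.86 and 1.55 FPKM with fluoxetine, with no overlap. Its log2 difference was -0.41 with a standard error of 0.16 (adjusted p = 0.535 from limma). MYD88, the adaptor of most Toll-like receptors, had the highest, 0.13 with a standard error of 0.08. TLR9, a receptor of unmethylated DNA, had the highest level of this list, 67.9 FPKM, but 86.3% of its exon bases also belong to AC097637.1, a protein-coding gene on the same strand, so the reads may not be its own.

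Of the 12 remaining IRF and STAT factors, the 10 tested were close to 0 in their differences, from -0.15 for IRF2BPL, a partner of IRF2, to 0.02 for STAT4. Of these, 0 passed, and their median was -0.02. STAT5A, below the filter of the main limma fit, had 0.106 and 0.0937 FPKM with PBS and 0.0134 and 0.0267 FPKM with fluoxetine. Its groups did not overlap, from 15, 14, 2 and 4 reads. Limma voom on the recovered reads covered 11 of the 12 factors, STAT5A among them, and called 0. IRF2BP1, an IRF2 corepressor, had the highest level at 28.9 FPKM and a log2 difference of -0.02 with a standard error of 0.08.

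Of the 40 tested interferon-stimulated genes, 21 had a fitted difference below 0 and 19 above, the median was -0.01, and 0 passed. The largest difference of those with at least 1 FPKM was that of IFI6, a mitochondrial antiviral protein, which had 1.63 and 0.926 FPKM with PBS and 1.81 and 2.29 FPKM with fluoxetine. Its groups did not overlap, and the log2 difference was 0.68 with a standard error of 0.23 (adjusted p = 0.478 from limma), from 27 to 67 reads per library. It was 1.06 without PBS replicate 1 and 0.31 without PBS replicate 2. The length behind the FPKM of IFI6 is 839 bases, and with the length trend removed its difference was 0.58. The most negative of those with at least 1 FPKM was that of SAMD9, an inhibitor of virus growth. It had 1.43 and 1.79 FPKM with PBS and 1.17 and 1.19 FPKM with fluoxetine. Its log2 difference was -0.41 with a standard error of 0.18 (adjusted p = 0.552 from limma), and -0.26 without PBS replicate 2. Below 1 FPKM, IFITM1 had the lowest of all 40, -1.23 with a standard error of 0.40 (adjusted p = 0.464 from limma). It rested on 8 and 5 reads with PBS and 1 and 2 with fluoxetine. LGALS3BP, a secreted glycoprotein, was the most abundant at 366 FPKM, with a log2 difference of 0.05 and a standard error of 0.08.

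The genes that interferon gamma induces, in part through IRF1, bear on whether the lower IRF1 came with lower targets. Of the 19 tested, 9 had a fitted difference below 0 and 10 above, with a median of 0.005, and 0 passed. PSMB10, a subunit of the immunoproteasome, had 34.7 and 30.7 FPKM with PBS and 40.8 and 38.4 FPKM with fluoxetine. Its log2 difference was 0.28 with a standard error of 0.08 (adjusted p = 0.381 from limma), in the opposite direction to IRF1, and both fluoxetine libraries were above both PBS libraries. Its length behind the FPKM is 977 bases, and with the length trend removed the difference was 0.19, and 34.8% of its exon bases also belong to AC040162.1 on the same strand. FAS, a death receptor, had the lowest difference of those with at least 1 FPKM, -0.18 with a standard error of 0.17. It was 0.0015 without fluoxetine replicate 2 and -0.36 without fluoxetine replicate 1. At an unadjusted p under 0.05 from limma there were 1 lower gene, CASP4, and 2 higher, PSMB10 and PSME2, against 606 and 472 of the 12663 tested. CASP4, below 1 FPKM, had the lowest difference of the 19, -1.35 with a standard error of 0.42 (adjusted p = 0.423 from limma). It rested on 13 and 9 reads with PBS and 2 and 1 with fluoxetine. PSME2 had 0.24 with a standard error of 0.08. PSME1, a proteasome activator with the highest level at 69.8 FPKM, had 0.06 with a standard error of 0.08.

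Of the 15 STAT3 targets tested, 11 had a fitted difference below 0, the median was -0.13, and 0 passed. For 8 of them, or 53.3%, the fluoxetine values were the lower ones with no overlap, against 24.8% of all genes tested. This was not particular to STAT3 targets. The share was 43.8% in the sensors and adaptors, 42.9% in the negative regulators and 33.3% in the receptors and kinases. It was near that of all genes in the interferon-stimulated genes. It was lower in the interferon gamma targets, 15.8%, and in the other IRF and STAT factors. Of the STAT3 targets, 3 had an unadjusted p under 0.05 from limma, all lower, against 606 lower of 12663. The list of STAT3 targets is small and its enrichment was not tested. MUC1, a membrane mucin, had 6.53 and 8.002 FPKM with PBS and 5.03 and 6.05 FPKM with fluoxetine, a log2 difference of -0.39 with a standard error of 0.13 (adjusted p = 0.458 from limma), and it was -0.24 without PBS replicate 2 and -0.25 without fluoxetine replicate 1. Of those with at least 1 FPKM, TNFRSF1A, a TNF receptor, had the highest difference, 0.12 with a standard error of 0.10, which was 0.06 without fluoxetine replicate 1. MCL1, an anti-apoptotic protein with 49.2 FPKM, had -0.01 with a standard error of 0.07. STAT3 itself had a log2 difference of -0.02.

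Among the negative regulators, 0 of 21 passed and the median was -0.06. SOCS1, which blocks JAK kinases and is induced by cytokines, had 1.45 and 1.63 FPKM with PBS and 1.46 and 1.07 FPKM with fluoxetine, so the groups overlapped, and its log2 difference was -0.28 with a standard error of 0.19. Without fluoxetine replicate 2 it was -0.07 and without fluoxetine replicate 1 it was -0.49. TRIM28, a corepressor that keeps endogenous retroviruses silent, had 176 and 160 FPKM with PBS and 187 and 182 FPKM with fluoxetine, a log2 difference of 0.14 with a standard error of 0.08 (adjusted p = 0.614 from limma), and of 0.07 without PBS replicate 2 and 0.21 without PBS replicate 1.

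**Figure D3:**
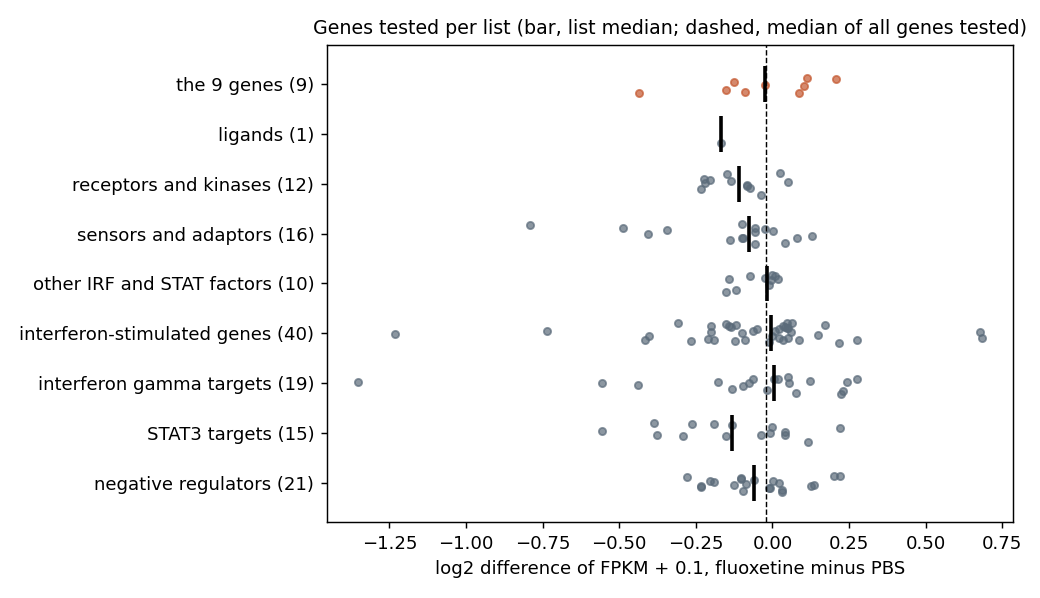
Log2 difference of FPKM + 0.1, fluoxetine minus PBS, for every tested gene of the 8 lists and for the 9 members, 1 point per gene and the number of genes in brackets, with a bar at each list's median and a dashed line at the median of all genes tested, -0.02. The list medians lie between -0.17 for the 1 ligand and 0.005 for the interferon gamma targets, and the points fall on both sides of 0 in every list with more than 1 gene.

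The genes most like IRF1 in the 4 libraries were sought among 116 members and list genes with at least 1 FPKM, by the root mean square difference of their centred log2 values. They were STING1 at 0.04, SAMD9 at 0.07 and BCL3, a regulator of NF-kB, at 0.08. BCL3 had 2.30 and 2.33 FPKM with PBS and 1.77 and 1.75 FPKM with fluoxetine, a log2 difference of -0.38 with a standard error of 0.14. With 4 libraries this likeness is a description of their order and size.

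The level of each list set against the members shows which parts of the circuit the line expresses. Receptors, kinases, STAT factors and negative regulators were mostly above 1 FPKM. Of the 53 listed interferon-stimulated genes, 30 were at or above 1 FPKM and 13 below 0.1 FPKM. Among the following genes, chosen after their values were seen, MX1, a GTPase that blocks viruses, had a mean of 0.0999 FPKM, OAS1 0.235 and BST2 0.0148, whereas MX2, a related GTPase, had 26.3, IFITM3, which blocks virus entry, 37.7 and ADAR, an RNA-editing enzyme, 54.1. USP18, the protease that removes ISG15 and blocks the type I interferon receptor, had 23.8 FPKM, near the level of STAT3, though its near-identical copy USP41 had 12.0 FPKM and reads of the pair may be split between them.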

How the data were processed

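RNA-seq of 2 PBS and 2 fluoxetine libraries of LASCPC-01 cells was analysed, grouped by the treatment label. The authors deposited FPKM (reads scaled by gene length and library depth) with 1 column per sample. The submitters' processing notes name fastp, HISAT2, HTSeq and GRCh38, with no versions and no annotation. The study's own differential test takes counts, so FPKM were tested instead with limma 3.58.1 in R 4.3.3 (lmFit, eBayes with a variance trend, two-sided) on log2(FPKM + 0.1), over genes with a mean of at least 0.1 FPKM, with Benjamini-Hochberg adjustment over all 12663. The pseudocount shrinks the log2 differences of low genes. With 2 libraries against 2, a single gene has no exact permutation test that could reach 0.05.

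Reads were recovered as the smallest whole numbers whose ratios matched those of the FPKM (tolerance 0.004) and that fitted lengths in whole bases at a depth on which 135 genes with their GENCODE 29 exon length met, which solved 99.5% of the genes above 0. The true read numbers may be multiples of these. Counting errors cover counting only. Recovery and limma were tested on simulated data, with outcomes that are not reported here. The changes simulated for limma were larger than the log2 difference of IRF1. Deviations from the group means correlated at 0.04 between libraries with the same number, over genes.

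The members and lists were chosen with earlier results of these data known. Genes named were the members and, in each list, those called and, with a mean of at least 1 FPKM, those with the highest and lowest log2 difference and the highest level. CASP4, PSME2, IFITM1 and STAT5A were named in addition, after their values were seen. Alternatives were 2 pseudocounts, 2 filters, 3 scalings, 2 variance settings, a replicate block and leaving out each library, and, chosen after seeing the data, limma voom on recovered reads (at least 10 over the libraries) and removal of the gene length trend (lowess, span 0.3). Tables and figures used Python 3.11.15, pandas 2.3.3 and matplotlib 3.10.9. Some genes of the lists and markers are counted but not reported here by name.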

Additional observations from a re-analysis of the deposited data

How the results depend on the processing

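The number of genes called over all genes tested was 30, and 0 of the 9 members and 0 of the pathway genes tested were called in any of the 16 alternatives. A replicate block gave 64 calls and changed no member or pathway call. The titles number the libraries 1 and 2 in each group, but no label says that a number marks a shared culture, and same-numbered libraries had a correlation of 0.04. Quantile normalization gave 16 calls, limma voom on the recovered reads 73, and no filter on low values and eBayes without the trend gave 0 each, with 1175 and 933 genes at an unadjusted p under 0.05. Leaving out 1 library gave 2 calls without PBS replicate 1, 3 without PBS replicate 2, 9 without fluoxetine replicate 1 and 12 without fluoxetine replicate 2, in fits that assume the lone library of a group to vary like the other group. The cause of these differences was not tested. IRF1 was lower in all 16 alternatives, with a log2 difference between -0.53 and -0.34. IRF3 and ISG15 were higher in all 16, between 0.07 and 0.14 and between 0.07 and 0.34. IRF2 was lower in all 16, between -0.28 and -0.02. The filters, variance settings and replicate block leave a log2 difference unchanged. For IRF1, IRF3 and ISG15, whose groups did not overlap, leaving out 1 library could not change the sign. The members were also chosen with this contrast known, so these counts are a description and no further support. The sign of IRF7, IRF9, STAT2, STAT3 and IFIT1 changed in at least 1 alternative, and IFIT1 was not fitted with a minimum mean of 1 FPKM. For genes with few reads, such as IFIT1 with 25 to 49, depth and the spread between replicates both limit what can be seen.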
